A study of Homo sapiens with 6 samples.

Results

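The transcripts of 10 genes that make, break down or bind hyaluronan were compared between JJ012, a human chondrosarcoma line, and C28, a human chondrocyte line labelled as the control. The genes were the synthases HAS1, HAS2 and HAS3, the hyaluronidases HYAL1, HYAL2 and HYAL3, the hyaluronan-degrading protein CEMIP, the receptor CD44 and the binding proteins TNFAIP6 and VCAN. They were taken by the gene symbol that the platform annotation gives each probe of an Illumina expression array. Of the 10 genes, 8 had a listed probe, 17 probes in all, while HAS1 and HYAL1 had none listed and were not analysed here. A probe counted as measured when its detection value exceeded 0.99 on all 3 arrays of at least 1 line. This left 9 probes in 6 genes, out of 11515 genes measured on the arrays and 20046 genes with a listed probe.

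Total RNA was hybridised on 3 arrays of JJ012 and 3 arrays of C28. Cells of both lines were plated at 5000000 per dish and kept for 24 h with no further treatment named, then lysed for column purification of RNA, which was copied into biotin-labelled cRNA. Each group is a single cell line, so the comparison sets one line against the other and not sarcoma against cartilage. The title of the series is about NOTCH and the IGF receptor, and hyaluronan genes are not its stated topic.

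Hyaluronan is a long, unsulfated sugar polymer that synthases in the plasma membrane spin out from UDP-glucuronic acid and UDP-N-acetylglucosamine. In cartilage it is the backbone to which aggrecan and link protein attach, and CD44 holds this pericellular coat on the chondrocyte and takes hyaluronan up for breakdown. HYAL2 at the cell surface and HYAL1 in the lysosome act in sequence on the polymer, and CEMIP depolymerises it by a separate route. TNFAIP6 moves heavy chains of inter-alpha-inhibitor onto hyaluronan, and VCAN encodes versican, a large hyaluronan-binding proteoglycan of loose matrix.

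Of the 6 measured genes, HAS2 was called higher in JJ012, CD44 and HYAL3 were called lower, and HAS3, HYAL2 and CEMIP were not called. A call required an adjusted p under 0.05 by limma, with Benjamini-Hochberg adjustment over 19384 measured probes, and a change of at least 2-fold in the probe of highest mean signal of the gene. Over all genes 13.7% were called higher and 17.6% lower, so 1 higher and 2 lower of 6 say nothing particular about hyaluronan genes as a group. Among the 9 measured probes 4 were called, against 29.8% of all measured probes. The values of the lines did not overlap for 8 of the 9 probes, and the same held for 74.2% of all measured probes.

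JJ012 replicate 1 stood apart in its reading of genes that are bright in C28. Over 94 probes bright in C28 and not detected on JJ012 replicate 2, the median on JJ012 replicate 1 was 8.92% of the C28 mean intensity after background correction, and all 94 were detected. JJ012 replicate 3 read 2.28% with 64 detected, and JJ012 replicate 2, undetected by selection, read 0.682%. Results of the hyaluronan genes are therefore given with and without JJ012 replicate 1. Between 17826 and 18378 probes were detected on the JJ012 arrays and between 18922 and 19332 on the C28 arrays, and correlations across probes were 0.986 to 0.992 within JJ012, 0.994 to 0.996 within C28 and 0.891 to 0.907 between the lines. Of 20 cartilage markers only MATN3, FRZB and SOX9 were measured. MATN3 and FRZB were called lower in JJ012, and ACAN and COL2A1, which define cartilage, were measured in neither line.

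**Figure D1:**
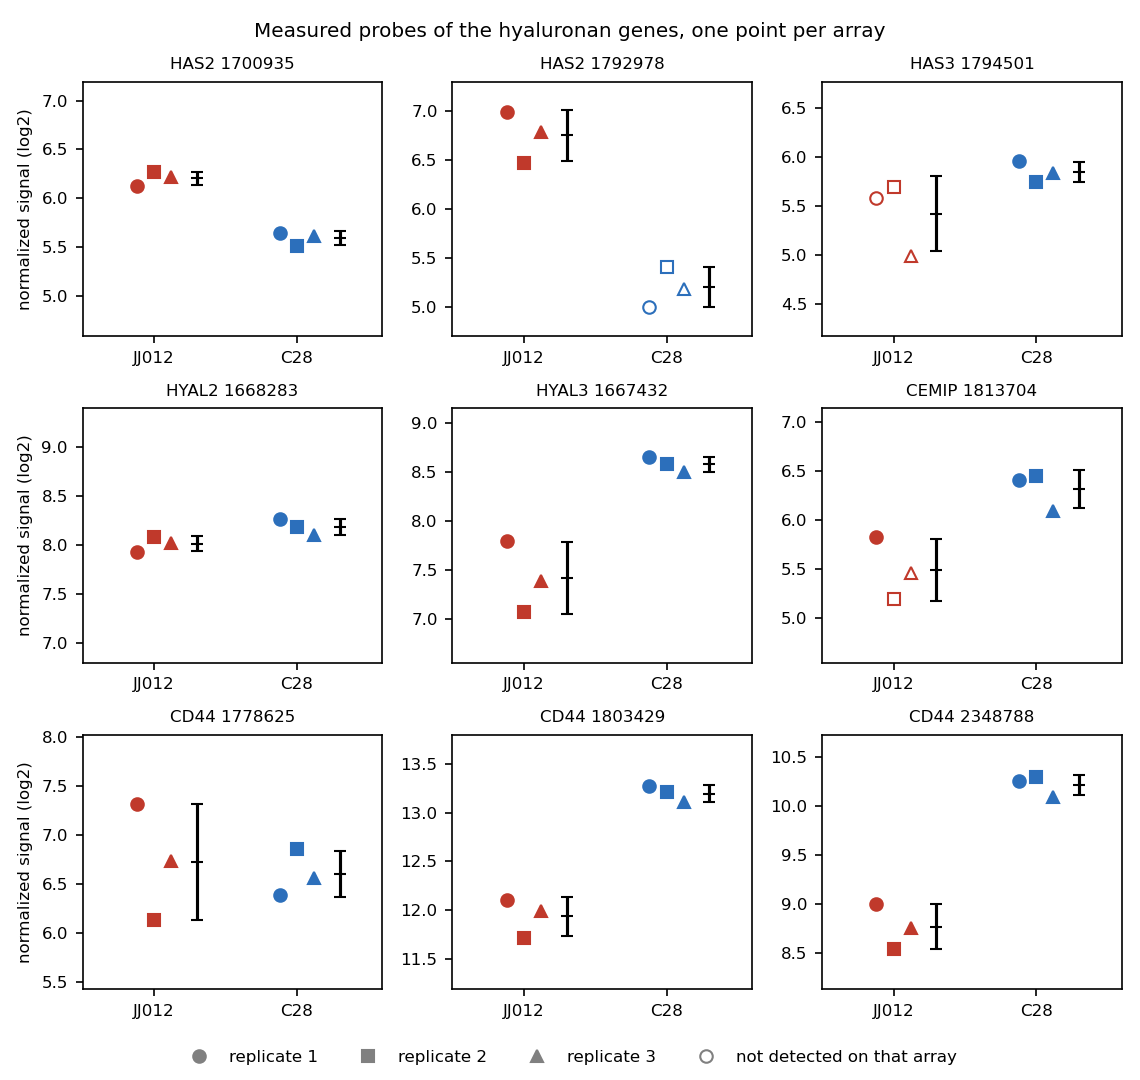
Normalized log2 signal (y axis) of the 9 measured probes on the JJ012 arrays, drawn left in red, and the C28 arrays, drawn right in blue. Symbols mark replicates, open symbols arrays on which the probe was not detected, and black bars the mean and SD (n = 3). The lines are apart in all panels but CD44 ILMN_1778625, where JJ012 runs from 6.13 to 7.32 and C28 from 6.39 to 6.86.

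HAS2 was the synthase gene that was higher in JJ012. Its product makes the long hyaluronan chains of most mesenchymal tissues and is the main synthase known from chondrocytes. Probe ILMN_1792978 had background-uncorrected intensities of 169.6, 130.9 and 169.4 on JJ012 arrays, against 101.0, 103.3 and 101.5 on C28 arrays. Every JJ012 array lay above every C28 array, and this probe was detected on all JJ012 arrays and on none of C28. On the normalized log2 scale it read 6.99, 6.48 and 6.79 in JJ012 and 5.00, 5.41 and 5.19 in C28. The C28 values of this probe are at background, so its difference has only a lower bound, at least 2.41-fold higher in JJ012 for ILMN_1792978 (fitted log2 fold change 1.55, SE 0.16, limma adjusted p = 5.58e-05). The bound was 2.22-fold without JJ012 replicate 1. In arrays of whole cultures, more cells carrying a transcript and more transcript per cell cannot be told apart.

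A further HAS2 probe, ILMN_1700935, was detected on all 6 arrays and had a smaller fitted difference. It read 6.13, 6.27 and 6.22 in JJ012 and 5.65, 5.51 and 5.62 in C28 (log2), a fold change of 0.61 on the log2 scale (SE 0.09, limma adjusted p = 0.000571), which did not pass 2-fold. Its 95% interval of 0.39 to 0.83 lies below the bound of ILMN_1792978, and that bound has no interval. The probes are listed for the same RefSeq transcript. On the C28 arrays ILMN_1700935 was just above the lowest detected signals, which were 5.52, 5.46 and 5.46. Which size holds for HAS2 is therefore not settled. Without JJ012 replicate 1 the change of ILMN_1700935 was 0.65. All JJ012 arrays were above all C28 arrays after normalization, whereas intensities overlapped, at 120.7, 120.9 and 135.7 in JJ012 and 126.5, 106.9 and 116.6 in C28. Since C28 is at background in 1 of these probes and close to it in the other, the gap between them has no measured size. Probes ILMN_1777562 and ILMN_2243036 were detected on no array, and their values overlapped between the lines. The call for HAS2 rested on background correction. The fitted log2 fold change of ILMN_1792978 was 0.71 without it and 0.80 in the authors' normalized values, both short of 2-fold.

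HAS3, the synthase known for shorter hyaluronan chains, was near background. Probe ILMN_1794501 read 5.59, 5.69 and 4.99 in JJ012, where no array detected it, and 5.96, 5.75 and 5.84 in C28, where all did. The groups were apart by a narrow gap, and the log2 fold change of −0.43 (SE 0.18) had a limma adjusted p of 0.0677, which misses the threshold. Without JJ012 replicate 1 it was −0.51 (limma adjusted p = 0.0509), again short of it. Under median scaling it was −0.54 (limma adjusted p = 0.0147), which passes the p threshold without 2-fold. Since no JJ012 array detected this probe, its difference has only a lower bound, at least 1.11-fold lower in JJ012. Probe ILMN_1668760 of HAS3 was detected on no array. HAS1, the synthase known for the least activity of the family, could not be set beside the others.

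Among the hyaluronidases, HYAL3 was lower in JJ012 and HYAL2 was not called. HYAL3 resembles the other hyaluronidases in sequence, and its own activity on hyaluronan is disputed. Its probe ILMN_1667432 had intensities of 256.4, 167.3 and 223.1 in JJ012, against 565.3, 450.5 and 459.7 in C28. In normalized log2 signal these were 7.80, 7.07 and 7.39 in JJ012 and 8.65, 8.59 and 8.50 in C28. The JJ012 arrays spread further apart than the C28 arrays, and the lines did not overlap. HYAL3 fell by 1.16 on the log2 scale, which is 2.24-fold (log2 fold change −1.16, SE 0.18, 95% interval −1.57 to −0.76, limma adjusted p = 0.00049).

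After background correction HYAL3 read 44.9%, 23.1% and 34.4% of its C28 mean on JJ012 replicates 1, 2 and 3. The C28 signal described above read 8.92%, 0.682% and 2.28% on these arrays, and its part in this gene was not tested. Without JJ012 replicate 1 the log2 fold change was −1.35, and without JJ012 replicate 2 it was −0.99, which ended the call. HYAL3 also missed 2-fold without background correction (−0.88) and in the authors' normalized values (−0.92). In the RefSeq gene table HYAL3 overlaps NAA80, and whether the probe also reads NAA80 was not tested.

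HYAL2 encodes the hyaluronidase anchored at the cell surface that cuts long hyaluronan into intermediate pieces. Probe ILMN_1668283 read 7.93, 8.08 and 8.02 in JJ012 and 8.27, 8.18 and 8.10 in C28 (log2). The highest JJ012 array, 8.08, came close to the lowest C28 array, 8.10. The log2 fold change was −0.17 (SE 0.10, limma adjusted p = 0.148), and its 95% interval of −0.40 to 0.05 lies within 2-fold. Without JJ012 replicate 1 it was −0.13. Under median scaling, which lowers the median of all genes by 0.19, HYAL2 read −0.41 (limma adjusted p = 0.0116). That passes the p threshold but not 2-fold. Its probes ILMN_1665916 and ILMN_1713840 were detected on no array. HYAL1, the lysosomal hyaluronidase, lies between HYAL3 and HYAL2 on chromosome 3.

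CEMIP, whose product binds hyaluronan and is needed for its depolymerisation in skin fibroblasts, was lower in JJ012 with a fitted change short of 2-fold. Its probe ILMN_1813704 read 5.82, 5.19 and 5.46 in JJ012 and 6.40, 6.45 and 6.09 in C28 (log2). All C28 arrays detected it but only replicate 1 of JJ012 did, and the lines did not overlap. The log2 fold change was −0.82 (SE 0.18, 95% interval −1.23 to −0.42, limma adjusted p = 0.00317), so CEMIP passed the p threshold without a call. JJ012 replicate 1 read 51.8% of the C28 mean, replicate 2 24.5% and replicate 3 37.8%. Once JJ012 replicate 1 was left out, CEMIP was detected on no remaining JJ012 array and was at least 1.55-fold lower (fitted −0.99). A fit chosen after seeing the data kept only replicate 2 of JJ012, which was taken to vary like the C28 arrays, and gave a fitted −1.12. That array did not detect CEMIP, so the change there has only a lower bound, which is short of 2-fold.

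**Figure D2:**
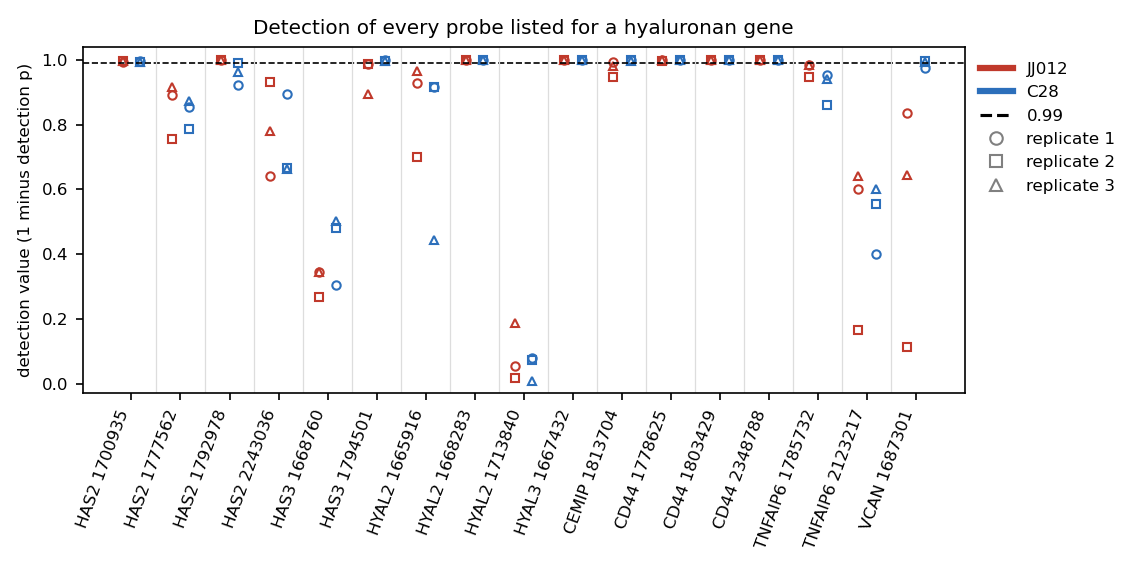
Detection value, which is 1 minus the detection p (y axis), of all 17 probes listed for a hyaluronan gene (x axis) on JJ012 arrays in red and C28 arrays in blue, with symbols for replicates. The dashed line is the minimum of 0.99. All arrays pass it for HAS2 ILMN_1700935, HYAL2 ILMN_1668283, HYAL3 and the 3 CD44 probes, and no array passes it for 7 probes.

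CD44, the main cell surface receptor for hyaluronan, was lower in JJ012 by its brightest probe. Probe ILMN_1803429 had intensities of 4066.4, 2903.8 and 4041.5 in JJ012, against 11774.3, 8882.0 and 9169.4 in C28. Every JJ012 array lay well below every C28 array. Normalized log2 signals were 12.11, 11.71 and 11.99 in JJ012 and 13.27, 13.21 and 13.10 in C28. CD44 fell by 1.26 on the log2 scale, which is 2.39-fold (log2 fold change −1.26, SE 0.12, 95% interval −1.54 to −0.97, limma adjusted p = 4.42e-05). Without JJ012 replicate 1 the change was −1.34. JJ012 arrays read 40.5%, 28.7% and 40.2% of the C28 mean on replicates 1, 2 and 3. The C28 signal described above read 8.92%, 0.682% and 2.28% on these arrays, and its part in CD44 was not tested. Detection values were at 1 on all 6 arrays, so the transcript was well above background in both lines.

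The 3 CD44 probes are listed for different RefSeq transcripts of a gene known for its many splice forms. Probe ILMN_2348788 was lower in JJ012 as well, with intensities of 507.6, 367.3 and 470.8 in JJ012 against 1554.9, 1290.4 and 1232.0 in C28. Its log2 fold change was −1.45 (SE 0.13, 95% interval −1.76 to −1.14, limma adjusted p = 3.11e-05), and −1.57 without JJ012 replicate 1. The third probe, ILMN_1778625, was far dimmer, with intensities of 198.1, 115.3 and 165.6 in JJ012 and 169.5, 180.5 and 167.0 in C28. It was detected on all 6 arrays and did not separate the lines. On the log2 scale it read 7.32, 6.13 and 6.74 in JJ012 and 6.39, 6.86 and 6.56 in C28, so that the C28 arrays lie within the range of JJ012. Its log2 fold change was 0.12 (SE 0.28, limma adjusted p = 0.707), with a 95% interval of −0.52 to 0.76 that leaves out a 2-fold change in either direction, and it turned to −0.17 without JJ012 replicate 1 and to −0.10 under median scaling.

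The CD44 probes thus differed in what they read between the lines. The log2 change of ILMN_1778625 was 1.38 above that of ILMN_1803429, and 1.17 without JJ012 replicate 1. That of ILMN_2348788 was 0.19 below it (−0.19), and −0.23 without JJ012 replicate 1. In both pairs the per-array differences between the probes did not overlap between the lines. The exact two-sided permutation p was 0.1 for each (adjusted 0.1 over 3 probe pairs of the hyaluronan genes), the smallest that 3 arrays against 3 allow. Averaging the 3 probes, with the dim ILMN_1778625 counted like the others, gave −0.86 and ended the call for CD44. Where in the transcript each probe lies was not analysed here, so no splice form is assigned.

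**Figure D3:**
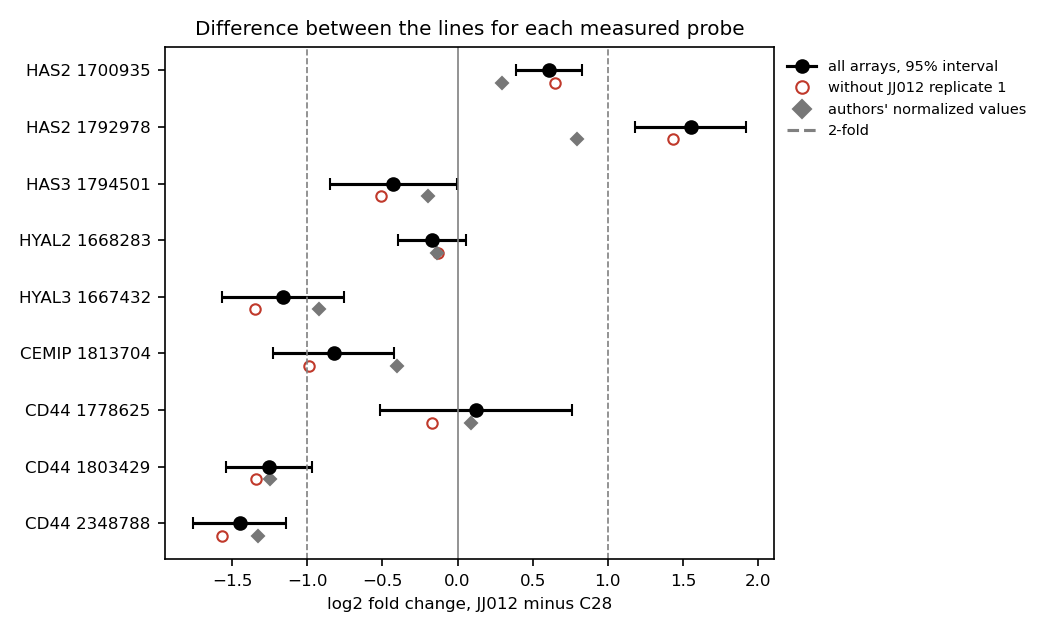
Log2 fold change of JJ012 minus C28 (x axis) for the 9 measured probes (y axis), with the limma estimate and 95% interval in black, the value without JJ012 replicate 1 as open circles and the authors' normalized values as diamonds. Dashed lines mark 2-fold. HAS2 ILMN_1792978, undetected in C28, and HAS3 ILMN_1794501, undetected in JJ012, are drawn at their fitted values and intervals, though only a bound holds for them. HAS2 ILMN_1792978 at 1.55 and CD44 ILMN_2348788 at −1.45 lie at the ends, and the authors' values lie nearer to 0 for all 9 probes.

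TNFAIP6, whose product is made by many cells under inflammatory cytokines, was detected on no array. Its probe ILMN_1785732 reached detection values of 0.98571, 0.94805 and 0.98442 in JJ012 and 0.95325, 0.86104 and 0.94026 in C28, with log2 signals of 5.53, 5.18 and 5.51 in JJ012 and 5.17, 4.86 and 5.08 in C28. With no detection filter the log2 difference was 0.37 (limma adjusted p = 0.0674). Probe ILMN_2123217 was further below the minimum.

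VCAN came close to the filter in C28 alone. Its probe ILMN_1687301 had detection values of 0.83636, 0.11169 and 0.64416 in JJ012 and 0.97532, 0.9974 and 0.99481 in C28. Log2 signals of 4.82, 4.45 and 4.68 in JJ012 lay below 5.30, 5.78 and 5.57 in C28. With detection above 0.95 in place of 0.99 the fitted log2 fold change was −0.90 (limma adjusted p = 0.00108), short of 2-fold, and since JJ012 is at background no fold is given. The nearest value inside the minimum was 0.99351, for HAS2 ILMN_1700935 on JJ012 replicate 1 and C28 replicate 2 and for CEMIP on JJ012 replicate 1. The nearest outside were 0.98961 for HAS2 ILMN_1792978 on C28 replicate 2 and 0.98831 for HAS3 ILMN_1794501 on JJ012 replicate 1.

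The RefSeq promoters of CD44 and HYAL3, the genes called lower, are shown because these members moved in the same direction. Each runs from 250 bases before to 50 after a start site of build GRCh38.p14, 5′ to 3′ on the strand of the gene, with capitals marking GC boxes (GGGCGG, on either strand). HYAL3 has a pair of listed starts on the minus strand, at chr3:50299356-50299655 and chr3:50298811-50299110, and CD44 lies on the plus strand at chr11:35138921-35139220.
CD44: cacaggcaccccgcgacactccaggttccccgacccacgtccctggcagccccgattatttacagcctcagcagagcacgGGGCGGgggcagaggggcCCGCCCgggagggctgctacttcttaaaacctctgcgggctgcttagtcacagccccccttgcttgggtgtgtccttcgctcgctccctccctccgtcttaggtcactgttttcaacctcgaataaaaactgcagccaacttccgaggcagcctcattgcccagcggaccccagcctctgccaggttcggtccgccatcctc
HYAL3 first start: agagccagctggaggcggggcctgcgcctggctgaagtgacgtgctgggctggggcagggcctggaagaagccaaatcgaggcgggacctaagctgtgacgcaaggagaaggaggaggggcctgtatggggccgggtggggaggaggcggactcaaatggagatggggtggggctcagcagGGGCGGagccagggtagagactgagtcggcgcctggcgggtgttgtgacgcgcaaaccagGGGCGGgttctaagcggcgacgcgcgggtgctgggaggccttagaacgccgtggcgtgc
HYAL3 second start: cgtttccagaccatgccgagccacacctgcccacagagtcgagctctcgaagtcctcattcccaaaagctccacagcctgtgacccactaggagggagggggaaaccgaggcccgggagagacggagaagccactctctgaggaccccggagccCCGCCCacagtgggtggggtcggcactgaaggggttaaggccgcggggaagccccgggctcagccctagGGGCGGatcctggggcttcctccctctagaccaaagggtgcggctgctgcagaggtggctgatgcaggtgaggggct
Each of the 3 windows holds 2 GC boxes, which 45.0% of 35116 RefSeq promoters of this length hold at least once. None of them holds TATAAA (11.5% of promoters), CCAAT (34.6%), the AP-1 motif TGANTCA (7.71%) or the E-box CACGTG (7.26%) on either strand. The promoter of CEMIP holds 3 GC boxes and 1 TATAAA, and that of HYAL2 holds none of these motifs. These matches describe letters in a window and were not set against the expression values.

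Around the 10 genes, 7 lists of pathway genes held 105 genes, of which 64 were measured, 8 called higher and 10 called lower in JJ012. Their median log2 fold change was −0.02, beside −0.04 over all 11515 genes. The shares of calls, 8 and 10 of 64, can be read beside 13.7% higher and 17.6% lower over all genes. No call among the 64 genes changed without JJ012 replicate 1.

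Genes that make the UDP-sugars consumed by the synthases were measured in 14 of 16 cases, with 2 higher and 12 not called. UAP1, which activates N-acetylglucosamine, read 12.21, 12.31 and 12.36 in JJ012 and 10.70, 10.62 and 10.74 in C28 (log2), a log2 fold change of 1.61 (SE 0.09, limma adjusted p = 3.15e-06). HK2, a hexokinase that also feeds glycolysis, had a log2 fold change of 1.95 (SE 0.13), and its other probe 3.00. UGDH makes UDP-glucuronic acid, the other building block. It read 10.68, 10.60 and 10.44 in JJ012 and 11.10, 11.18 and 11.28 in C28, a log2 fold change of −0.61 (limma adjusted p = 0.000956) that did not pass 2-fold. GFPT1, the entry enzyme to the hexosamines, was close to it at −0.64 without a call. The UGP2 probe of highest signal read 0.08, while 2 of its other probes read 1.34 and 1.42. The list median was 0.30.

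**Figure D4:**
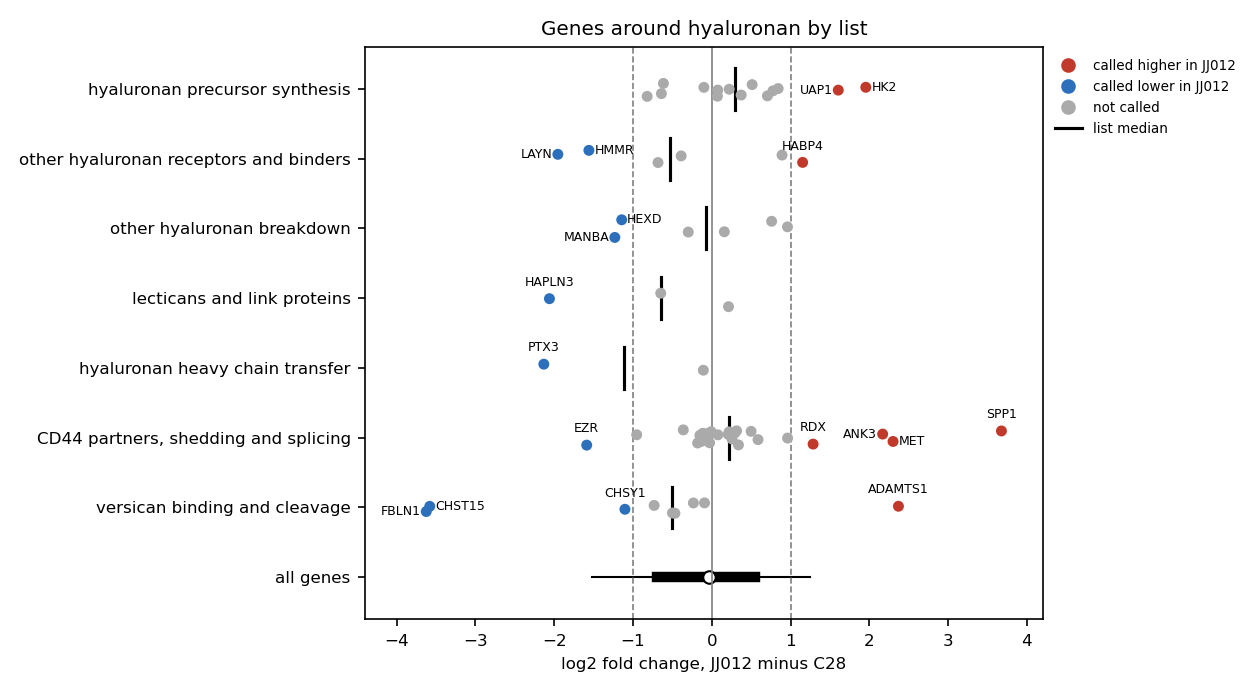
Log2 fold change of JJ012 minus C28 (x axis) for the measured genes of 7 lists (rows), by the probe of highest signal, with genes called higher in red, called lower in blue and not called in grey. Vertical bars are list medians, and the bottom row gives all 11515 genes as the 10th to 90th percentile (thin), the 25th to 75th (thick) and the median (circle, −0.04). Genes undetected in 1 line are drawn at their fitted value.

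Other hyaluronan receptors and binders were measured in 6 of 14 cases, with 1 higher, 2 lower and 3 not called. HMMR, a hyaluronan-binding protein that also acts on the mitotic spindle, read 10.07, 9.97 and 9.88 in JJ012 and 11.33, 11.63 and 11.65 in C28, a log2 fold change of −1.56 (SE 0.12, limma adjusted p = 1.15e-05) with −1.67 in its other probe. LAYN, a membrane receptor for hyaluronan, was detected on no JJ012 array and was at least 3.00-fold lower (limma adjusted p = 1.1e-06). HABP4, an RNA-binding protein that was named for hyaluronan binding, was higher at 1.15, but its other probe read 0.28 and 4 alternatives ended its call. LYVE1, STAB1 and STAB2, receptors of lymphatic and sinusoidal endothelium, were not measured. Of the 6 measured genes on the list of further breakdown genes, HEXD at −1.14 and MANBA at −1.23 were lower. Both are glycosidases, and whether they act on hyaluronan was not examined here. HEXA (0.16), GUSB (−0.30), CTSD (0.96) and CEMIP2 were not called. LAYN, HEXD and MANBA missed 2-fold without background correction, and HEXD and MANBA also in the authors' normalized values. CEMIP2, a cell surface relative of CEMIP, read 8.18, 8.18 and 8.34 in JJ012 and 7.33, 7.51 and 7.58 in C28. Its log2 difference of 0.76 (limma adjusted p = 0.000343) had the opposite sign to that of CEMIP and did not pass 2-fold.

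Proteins that assemble on hyaluronan were mostly unmeasured. ACAN, the aggrecan gene, and the link protein gene HAPLN1 did not pass the filter, and of 3 measured lecticans and link proteins only HAPLN3 was called, at least 2.84-fold lower in JJ012. PTX3, which joins TNFAIP6 and heavy chains in the hyaluronan coat of the ovarian follicle, was at least 2.08-fold lower (limma adjusted p = 5.27e-06). Neither HAPLN3 nor PTX3 was detected on a JJ012 array. ITIH5, a relative of the heavy chains, read −0.11 without a call, and the remaining 6 genes of that list were not measured.

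Genes known to act with CD44 were measured in 24 of 29 cases, with 4 higher, 1 lower and 19 not called. The ERM proteins, which tie the tail of CD44 to actin, split. EZR read 11.08, 10.96 and 11.11 in JJ012 and 12.67, 12.61 and 12.63 in C28, a log2 fold change of −1.59 (SE 0.09, limma adjusted p = 3e-06) with −1.82 in its other probe. RDX read 10.62, 10.38 and 10.35 in JJ012 and 9.16, 9.20 and 9.13 in C28, a log2 fold change of 1.29 (SE 0.11, limma adjusted p = 1.61e-05). MSN read 0.21 (limma adjusted p = 0.154) and was not called. SPP1, the gene of osteopontin, a secreted ligand of CD44 and integrins, was at least 8.45-fold higher by its brightest probe, which no C28 array detected. The bound was 7.23-fold without JJ012 replicate 1, and the other SPP1 probe had a fitted log2 fold change of 2.88. MET, a receptor tyrosine kinase for which CD44 can serve as co-receptor, had a log2 fold change of 2.30 (SE 0.11), and ANK3, an ankyrin, was at least 3.20-fold higher. The splicing regulators ESRP1 and ESRP2, known for including variable exons of CD44 in epithelia, were not measured.

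Genes of versican binding, sulfation and cleavage were measured in 9 of 21 cases, with 1 higher, 3 lower and 5 not called. ADAMTS1, a protease that cuts versican and aggrecan, read 9.22, 9.26 and 9.28 in JJ012 and 6.88, 6.66 and 7.11 in C28, a log2 fold change of 2.37 (SE 0.13, limma adjusted p = 2.01e-06). CHST15, a chondroitin sulfotransferase, was at least 5.81-fold lower, and CHSY1, a chondroitin synthase, was at −1.10. FBLN1, a matrix protein that binds versican, had a log2 fold change of −3.62 (SE 0.34), and −4.03 without JJ012 replicate 1, while its 3 other probes read −3.54, −3.01 and −1.33. ADAMTS5 was not measured.

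Markers of other cell types also held called genes, where 13.7% of all measured genes were called higher and 17.6% lower. The part of these markers in the results above was not tested. Of 10 fibroblast markers 9 were measured, 4 higher and 4 lower in JJ012, and their summed linear signal ran from 12075 to 13846 over the JJ012 arrays and from 4230 to 4430 over the C28 arrays. S100A4 (log2 fold change 4.38) and DCN (at least 35.2-fold higher by its brightest probe) carry the higher sum. The other DCN probes had fitted log2 fold changes of 1.57 and 3.89. COL1A1 (−1.45), COL1A2 (−2.12, and −1.07 in its other probe), COL3A1 (−3.79) and THY1 (at least 2.98-fold lower) went the other way. Among the JJ012 arrays only replicate 1 detected COL3A1, and without that array it was at least 8.88-fold lower (fitted −4.28). Of 8 epithelial markers 3 were measured and 2 were lower, with a summed signal of 178 to 316 in JJ012 and 1211 to 1351 in C28. Of 8 leukocyte markers 3 were measured, 1 higher and 1 lower, with a summed signal of 6676 to 8471 in JJ012 and 1571 to 1899 in C28. CD68 (2.96) carries that sum, CD14 was lower (−2.72), and HLA-DRA was not called. PTPRC and CD3E, also on the leukocyte list, were not measured. Of 6 endothelial markers PECAM1 alone was measured. It was detected on no C28 array and was at least 1.67-fold higher, a call it lost without background correction and in the authors' normalized values.

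The genes whose centred log2 signal over the 6 arrays came nearest to each called gene were sought among all 11515 genes, by the root mean square difference in log2 units. For HAS2 they were RIOK2 at 0.081, EPHA4 at 0.091 and SLC35A3 at 0.101. For CD44 they were ACSL1 at 0.046, RFTN1 at 0.050 and CASTOR3P at 0.059. For HYAL3 they were NXT2 at 0.060, SMIM19 at 0.062 and GPC2 at 0.064. HAS2 entered by ILMN_1792978, whose C28 values are at background, so its distances take in background signal. All these values rest on 6 arrays of 2 lines and are a description.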

How the data were processed

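The authors deposited a linear mean intensity per probe and array, with no background subtraction or scaling seen in the values, and beside it a fraction under a detection heading, which is 1 minus the detection p-value. A second deposited table holds the authors' normalized log2 values, centred on each probe, and was used only as an alternative, since how its arrays were brought to a common scale is not stated in the sources used here. Intensities were background-corrected, quantile-normalized and logged by the neqc function (limma 3.58.1, R 4.3.3, offset 16, negative controls inferred from the detection values).

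JJ012 was compared with C28 by lmFit and eBayes (two-sided) over 19384 probes with a detection value above 0.99 on all 3 arrays of a line, and p-values were adjusted by Benjamini-Hochberg over all of them. Each fold change is on the log2 scale, C28 subtracted from JJ012. A gene was called by its probe of highest mean signal. Where no array of a line detected a probe, a floor was taken on each of its arrays, the larger of the probe's own signal and the lowest signal of any detected probe. The bound written as at least N-fold is the mean of the line that detected it over the mean of these floors. Separate cultures are not named in the labels, so the p-values cover the spread of these arrays, which may be technical, and their number limits precision.

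Probes were named from the platform annotation, 30113 with 1 symbol, 8 with several and 17110 with none listed, and 30074 matched a RefSeq table of GRCh38.p14 used for names, gene order and promoters. Members and lists were chosen with earlier results of these data known. Named genes were all members, the called genes of each pathway list up to 4 in each direction, a few fixed list genes, and the 3 nearest in pattern to each called member. The fit was tested on simulated data. Alternatives changed background correction, normalization, filter, probe choice, array weights, the replicate block and each array in turn. The microRNA measurement named by the series title was not used here.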

Additional observations from a re-analysis of the deposited data

How the results depend on the processing

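Alternatives that changed only the detection filter, fitted 1 probe a gene or added the replicate block keep each fold change by design. Their direction and side of 2-fold could not change, and they are counted in the tallies below. Of 156 values of the measured hyaluronan probes under alternatives, 146 kept their direction and side of the threshold, 6 lost the call, 1 gained it and 3 changed sign. All 3 belong to CD44 ILMN_1778625, uncalled throughout, at −0.10 under median scaling, −0.17 without JJ012 replicate 1 (−0.17 to 0.42 over the arrays left out) and −0.47 with replicate 2 as the only JJ012 array, a setting added after seeing the data. Without background correction 1551 probes were called higher and 1777 lower, in the authors' normalized values 1729 and 1969, against 2698 and 3088. Both settings called 0 hyaluronan genes higher and 1 lower, CD44, in limma at the same thresholds, and HAS2 and HYAL3 kept adjusted p-values under 0.05 there without 2-fold. Averaging the probes of a gene, and leaving out JJ012 replicate 2, each called 1 hyaluronan gene lower. Leaving out each array in turn gave 2651 to 2780 probes higher and 3029 to 3180 lower, 1 to 1 hyaluronan genes higher and 1 to 2 lower, and 8 to 10 list genes higher and 10 to 11 lower. Of 468 values of named list genes 457 kept their direction and side, 10 lost the call and 1 changed sign (UGP2, −0.10 under median scaling). Median scaling moved the share of lower calls over all genes to 67.0%, against 56.3%. The replicate block gave 2698 probes higher and 3088 lower and changed no call of a hyaluronan gene, and same-numbered arrays had correlations of −0.04, −0.07 and 0.05 in their deviations, so the numbers do not pair them. Low signal over background limits HAS2 ILMN_1792978 and ILMN_1700935 in C28, HAS3, CEMIP and VCAN in JJ012, and CD44 ILMN_1778625 and TNFAIP6 in both lines.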

Other observations

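In the RefSeq gene order, the 5 genes on either side of each hyaluronan gene were looked up after the values of the hyaluronan genes were seen, as a description with no test. Beside CD44 on chromosome 11, 7 neighbours were measured, 3 called lower and 1 higher. The lower ones were CAT, the catalase gene, at −1.30, PAMR1 at −1.88 and FJX1 at −4.04, and LDLRAD3 was higher at 1.24. Beside HYAL3 on chromosome 3, 6 neighbours were measured and 3 called lower, SLC38A3, an amino acid transporter gene, at −2.02, SEMA3B, a secreted guidance factor gene, at −1.92 and RASSF1, a tumour suppressor gene, at −1.12. IFRD2, next to HYAL3, read 0.85 and was not called. Beside CEMIP on chromosome 15, 5 neighbours were measured and 3 called lower, ARNT2 at −3.45, TLNRD1 at −1.36 and ABHD17C at −1.22, with CEMIP itself at −0.82. Beside VCAN on chromosome 5, 8 were measured, 4 called higher and 4 not called, although VCAN did not pass the filter. Beside HAS2, the gene called higher, 8 were measured, 1 called higher and 7 not called. Beside HAS3, 5 were measured, 1 called lower and 4 not called. Beside TNFAIP6, 7 were measured, 1 called higher and 2 lower, and beside HAS1, 5 were measured, 2 called higher and 1 lower. HYAL1 and HYAL2 share the run of HYAL3. Over all measured genes 13.7% were called higher and 17.6% lower, and neighbours are too few to set against these shares.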
